A study of Mus musculus with 12 samples.

Results

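Prostaglandin E2 (PGE2) is a lipid mediator of inflammation in the colon, and its level is set by the enzymes that make it and those that take it away. Cyclooxygenases turn arachidonic acid into PGH2, PGE synthases turn PGH2 into PGE2, and the 4 EP receptors pass the signal into cells. The transporter Slco2a1 carries PGE2 back into cells, where the dehydrogenase Hpgd oxidises it to a form with little activity. In the colon Hpgd is known as an enzyme of mature surface epithelium that falls in tumours, while Ptgs2 is induced by inflammation. Here 10 genes cover these steps and a further branch to prostacyclin: the cyclooxygenases Ptgs1 and Ptgs2, the synthases Ptges and Ptgis, the receptors Ptger1, Ptger2, Ptger3 and Ptger4, and Slco2a1 and Hpgd for uptake and breakdown. They were found by symbol in the table of raw counts, and all 10 of these, among 18514 genes listed, passed the filter on low counts.

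The data are RNA sequencing of colorectal tissue from 12 male C57BL/6 mice, bought at an age of 4 weeks, with 1 library per mouse and 3 mice in each of 4 groups. Ctrl mice had plain drinking water and no swimming, and Ctrl_Swim mice swam daily in addition. Model mice received azoxymethane (AOM), a carcinogen, followed by cycles of dextran sodium sulfate (DSS) in the drinking water, which injures and inflames the colon, and did not swim. Model_Swim mice received AOM and DSS and also swam, from before the AOM until the end of the study. Mice that did not swim were put into the same container with shallow water. The 3 libraries of a group are a subset of the mice the study kept, and the sources used here do not say how they were chosen or whether tumours or the tissue between them were taken. Libraries are named by group and replicate number, such as Model 3. The values are levels of RNA and not of prostaglandins or proteins.

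Total counts lay between 17256953 and 19451055 per library, so that 3 counts, the limit that a count of 0 allows, correspond to 0.154 to 0.174 CPM, the count scaled to library size. In every library the 10 genes had counts above that limit. Genes of mature colonocytes, smooth muscle and fibroblasts were abundant in all libraries, as the tissue label says, with Car1, Myh11 and Col3a1 as the most abundant gene of each list. In addition, 6 genes of pancreatic digestive enzymes (Cela2a, Cpa1, Ctrb1, Pnlip, Prss2 and Cel) summed to 34100 CPM in Model 1 and 16400 CPM in Model 3. Their sum lay between 21 and 36.2 CPM in Model 2, Ctrl_Swim 3 and the 3 Ctrl libraries, and between 0.715 and 1.82 CPM in Ctrl_Swim 2, Ctrl_Swim 4 and the 3 Model_Swim libraries. Each Model library thus had the higher level of these genes and each Model_Swim library the lower, so that between those groups this level and swimming cannot be told apart. In bulk tissue, fewer cells of a type and less RNA per cell cannot be told apart either.

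The promoters of the genes on which the comparisons turn are given here for reference, from RefSeq on GRCm38.p6, each as 250 bases before and 50 bases after the annotated start, 5′ to 3′ on the strand of the gene. RefSeq promoters were at hand for 8 of the 10 genes and not for Ptger1 and Ptgis. Those printed are for Ptges, Hpgd and Ptger4, which passed the test in a comparison, and for Ptgs2, the inducible cyclooxygenase. Capitals mark matches to a TATA box (TATAAA), a GC box (GGGCGG), a CRE core (TGACG) or an E-box (CACGTG) on either strand.
Ptges, minus strand, chr2:30903248-30903547: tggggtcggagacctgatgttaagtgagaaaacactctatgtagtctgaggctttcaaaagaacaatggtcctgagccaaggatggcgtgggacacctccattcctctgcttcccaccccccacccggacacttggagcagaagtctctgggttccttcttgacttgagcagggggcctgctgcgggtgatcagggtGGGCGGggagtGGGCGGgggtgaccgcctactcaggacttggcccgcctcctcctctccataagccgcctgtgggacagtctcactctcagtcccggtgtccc
Hpgd, plus strand, chr8:56294302-56294601: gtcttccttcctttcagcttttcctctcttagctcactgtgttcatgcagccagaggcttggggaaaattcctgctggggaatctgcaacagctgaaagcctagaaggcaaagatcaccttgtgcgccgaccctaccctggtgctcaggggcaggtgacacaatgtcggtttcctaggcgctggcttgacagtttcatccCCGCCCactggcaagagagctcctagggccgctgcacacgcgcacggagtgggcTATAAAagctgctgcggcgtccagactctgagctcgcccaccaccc
Ptgs2, plus strand, chr1:150099781-150100080: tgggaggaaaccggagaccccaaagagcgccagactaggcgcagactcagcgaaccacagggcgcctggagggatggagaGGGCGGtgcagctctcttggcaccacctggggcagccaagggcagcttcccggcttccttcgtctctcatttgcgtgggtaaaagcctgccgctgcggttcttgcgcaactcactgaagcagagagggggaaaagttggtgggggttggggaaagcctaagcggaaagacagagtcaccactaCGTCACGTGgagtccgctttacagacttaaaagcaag
Ptger4, minus strand, chr15:5244138-5244437: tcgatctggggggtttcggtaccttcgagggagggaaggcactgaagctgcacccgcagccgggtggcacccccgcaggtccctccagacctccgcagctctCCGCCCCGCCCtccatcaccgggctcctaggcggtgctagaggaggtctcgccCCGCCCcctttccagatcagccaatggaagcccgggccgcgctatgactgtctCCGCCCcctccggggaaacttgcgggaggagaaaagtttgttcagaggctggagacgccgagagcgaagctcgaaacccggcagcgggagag

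The window of Ptges held 2 GC boxes, at 53 and 42 bases before the RefSeq start. In the GENCODE M21 annotation this gene starts farther upstream, at chr2:30929863, which lies outside the window. That of Ptger4 held 4 GC boxes, all on the minus strand of the gene, of which the first 2 overlap by a base. Hpgd had a GC box 50 bases before the RefSeq start and a TATA box that begins at base 5 after it, which is 29 bases before the start of the gene in the GENCODE M21 annotation. In Ptgs2 a GC box lay 170 bases before the start, and after the start a CRE core on the minus strand overlapped an E-box. Of the 8 promoters, 6 held a GC box, 2 a TATA box, 1 a CRE core and 1 an E-box, while among 32544 RefSeq mouse promoters of the same length 35.9% held a GC box, 13.6% a TATA box, 20.9% a CRE core and 7.17% an E-box. None of the 8 held an AP-1 site (TGANTCA, in 7.79% of all promoters) or an NF-kB site with open middle bases (in 5.56%). These matches describe letters in a window and say nothing of whether a factor binds.

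Levels of different genes were set side by side in FPKM, which divides by transcript length. Hpgd was the most abundant of the 10 genes, with a mean of 99.0 FPKM over the 12 libraries, and it lay above every other gene in all 12. Slco2a1 followed with 19.9 FPKM and Ptger4 with 11.6 FPKM. Among these 10 genes, both steps that remove PGE2 were thus higher per length than any synthase or receptor gene. Synthases outside the 10 were not compared per length. Ptgs1 had a mean of 6.34 FPKM, Ptgis of 5.54 FPKM, Ptges of 3.36 FPKM, Ptger3 of 2.79 FPKM, Ptgs2 of 1.96 FPKM and Ptger1 of 1.42 FPKM. Ptger2, the gene of the receptor EP2, was the lowest with 0.603 FPKM and from 0.350 to 0.770 FPKM per library. Among neighbours in this order, Ptgs1 was above Ptgis in only 8 of 12 libraries and Ptges above Ptger3 in 7 of 12, so these pairs did not differ beyond their spread. The place of Ptgs1 depends on the length used: its FPKM implies 6208 bases, while its longest coding transcript in GENCODE has 2867 bases, which would give it a level of 13.7, just below Slco2a1 at 13.8 on the same lengths and above Ptger4.

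Model against Ctrl asks which steps differ in the colon after AOM and DSS. The synthase gene Ptges rose and the breakdown enzyme fell, while receptors, uptake and the constitutive cyclooxygenase did not pass the test. The rise does not extend to the other PGE synthases, which are not members. The mean of Ptges2 fell from 40.8 CPM in Ctrl to 26.7 CPM in Model (edgeR adjusted p = 0.00508). Ptges3 went from 94.0 to 81.8 CPM, lower in every Model library, but did not pass the test (edgeR adjusted p = 0.0861). Ptges, the inducible PGE synthase (chr2:30889471-30929863), had 8.39, 5.72 and 8.58 CPM in Ctrl 1 to 3 and 15.7, 22.7 and 18.5 CPM in Model 1 to 3. All Model libraries lay above all Ctrl libraries. The log2 fold change was 1.33 (SE 0.18, edgeR adjusted p = 0.000863), a fold of 2.51. Hpgd (chr8:56294585-56321043) had 195, 235 and 209 CPM in Ctrl and 68.4, 89.8 and 167 CPM in Model. Every Model library lay below every Ctrl library, but Model 3 stood closer to Ctrl than to the other Model mice. Its log2 fold change was -0.98 (SE 0.25, edgeR adjusted p = 0.0137), a fold of 0.509.

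The count of members called was 1 higher and 1 lower of 10, at an adjusted p under 0.05 over all 15484 genes tested, where 16.5% of all genes were higher and 16.2% lower. With the cutoff of 2-fold that the study used as well, Ptges was the single member called, against 7.43% of all genes. Groups did not overlap for 3 members (30%), and for 44.2% of all genes, so the members as a group did not stand out by either count. Their median log2 fold change was 0.30, beside 0.01 over all genes. Hpgd lost its call in a fit of Ctrl and Model alone (log2 fold change -0.97, edgeR adjusted p = 0.0575) and among the libraries with higher pancreatic genes (log2 fold change -0.96, edgeR adjusted p = 0.0662), with a fold about as large in both, and Ptges kept its call in both. Without Model 1, 5 members were called, with Ptgs1 (edgeR adjusted p = 0.0310), Ptgs2 and Ptger1 (edgeR adjusted p = 0.0207) higher in addition. In that fit 5034 of all 15635 genes tested were called.

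**Figure D1:**
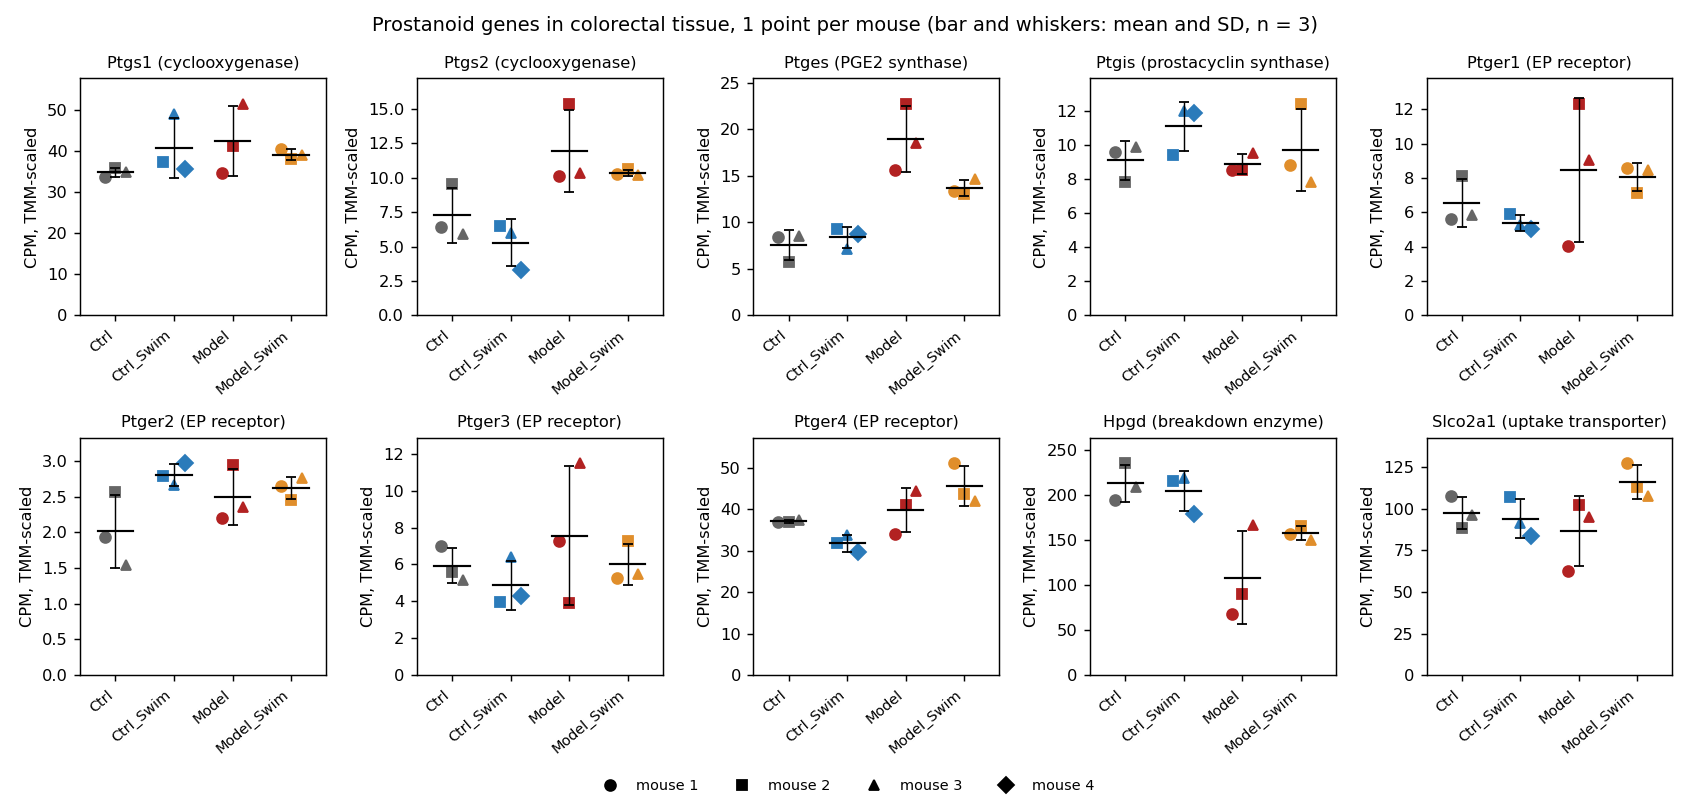
CPM of each of the 10 genes in the 12 libraries, by group, with 1 point per mouse, its replicate number as the shape, and bars and whiskers for the mean and SD (n = 3). Ptges lies at 15.7 to 22.7 CPM in Model and 13.1 to 14.7 CPM in Model_Swim, above all libraries of both groups without AOM and DSS, while Hpgd is at 68.4 and 89.8 CPM in Model 1 and Model 2 and at 151 CPM or more in every other library.

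Of the cyclooxygenases, Ptgs2 (chr1:150100031-150108227) is the inducible one and encodes COX-2. It had 6.40, 9.54 and 5.88 CPM in Ctrl and 10.1, 15.4 and 10.3 CPM in Model. The groups did not overlap, though Ctrl 2 came close to the lowest Model library. The log2 fold change of 0.71 (SE 0.27, 95% interval 0.13 to 1.30) missed the threshold, with an edgeR adjusted p = 0.0591. It was past it in 9 of 23 other fits, among them DESeq2 (adjusted p = 0.0299) and edgeR without Ctrl 2 (adjusted p = 0.0356), Ctrl_Swim 4 (adjusted p = 0.0247), Model 1 (adjusted p = 0.0498) or Model 3 (adjusted p = 0.0448). Leaving out Model 2 gave a log2 fold change of 0.51 (edgeR adjusted p = 0.192). Leaving out Ctrl 1 or Ctrl 3 gave an edgeR adjusted p of 0.146 or 0.162. Ptgs1, the constitutive cyclooxygenase, had 33.7, 35.8 and 35 CPM in Ctrl and 34.6, 41.3 and 51.5 CPM in Model, with overlap between the groups (log2 fold change 0.29, SE 0.14, edgeR adjusted p = 0.141). By length it made up most of the cyclooxygenase RNA, with a mean share of 77.7% of the summed FPKM of both genes in Ctrl and 71.7% in Model.

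Among the receptors, Ptger4, whose product EP4 raises cyclic AMP and which was the most abundant receptor gene per length, had 36.9, 36.9 and 37.5 CPM in Ctrl and 34.1, 41.0 and 44.5 CPM in Model. The Ctrl values were nearly the same and fell inside the wider range of Model. Its log2 fold change was 0.10 (95% interval -0.12 to 0.33, edgeR adjusted p = 0.463). Ptger2, whose product EP2 also raises cyclic AMP, had 1.93, 2.56 and 1.54 CPM in Ctrl and 2.20, 2.94 and 2.35 CPM in Model (log2 fold change 0.31, 95% interval -0.21 to 0.83, edgeR adjusted p = 0.329). Ptger3, whose product EP3 lowers cyclic AMP, spread from 3.92 to 11.5 CPM within Model alone and overlapped with Ctrl (edgeR adjusted p = 0.446). Ptger1, whose product EP1 raises calcium, spread from 4.02 to 12.3 CPM within Model (edgeR adjusted p = 0.386). Its counts are uncertain: the library kit keeps strand, but the strand setting of the counting is not given in the sources used here, and Ptger1 had from 75 to 226 counts per library.

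Slco2a1, the transporter, had 108, 88.5 and 96.1 CPM in Ctrl and 62.5, 102 and 95.3 CPM in Model. Only Model 1 was below the Ctrl range, and the log2 fold change was -0.17 (95% interval -0.53 to 0.19, edgeR adjusted p = 0.448). Ptgis, the prostacyclin synthase, had 9.60, 7.80 and 9.90 CPM in Ctrl and 8.52, 8.50 and 9.53 CPM in Model, with a log2 fold change of -0.04 (95% interval -0.44 to 0.36, edgeR adjusted p = 0.881).

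Model_Swim against Model asks what differs with swimming among the mice given AOM and DSS. No member passed the test, where 0.0710% of all genes did, and DESeq2 and limma also called none. At an unadjusted p under 0.05 in edgeR, 2 of the 10 were found, Ptges lower and Slco2a1 higher, beside 2102 of the 15484 genes tested. These were also the only 2 members whose groups did not overlap (16.9% over all genes). Ptges had 13.4, 13.1 and 14.7 CPM in Model_Swim against 15.7, 22.7 and 18.5 CPM in Model. All Model_Swim libraries were below all Model libraries, and the log2 fold change was -0.47 (SE 0.18, 95% interval -0.86 to -0.07, edgeR adjusted p = 0.297). Slco2a1 had 127, 113 and 108 CPM in Model_Swim, each above all 3 Model libraries, with a log2 fold change of 0.42 (SE 0.16, 95% interval 0.06 to 0.78, edgeR adjusted p = 0.303). The median log2 fold change of the members was -0.00, beside -0.01 over all genes.

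Hpgd had 157, 166 and 151 CPM in Model_Swim while Model spread from 68.4 to 167 CPM. Model 3 overlapped with the swimmers and Model 1 and Model 2 did not. The log2 fold change was 0.54 (SE 0.25, 95% interval -0.01 to 1.09, edgeR adjusted p = 0.372). One library decides this result: without Model 3 the log2 fold change was 1.01 (SE 0.13, edgeR adjusted p = 0.00134), and without Model 1 it was 0.30 (edgeR adjusted p = 0.525). Over all genes tested, 882 of 15681 were called without Model 3, against 11 in the main fit. Model 3 was also the Model library with the most RNA of mature colonocytes. It had the least of neutrophil and squamous epithelium genes as well, at summed levels of 20.2 and 28.5 CPM. Their part in this result was not tested. Ptgs2 had 10.2, 10.6 and 10.2 CPM in Model_Swim, close to Model 1 and Model 3 and below Model 2, and its log2 fold change was -0.21 (95% interval -0.78 to 0.37, edgeR adjusted p = 0.778). Ptger4 had 51.1, 43.7 and 41.9 CPM (log2 fold change 0.19, 95% interval -0.03 to 0.42, edgeR adjusted p = 0.443). Ptger2 had 2.64, 2.45 and 2.76 CPM, inside the range of Model (log2 fold change 0.07, 95% interval -0.45 to 0.58, edgeR adjusted p = 0.931). Ptgs1, Ptgis, Ptger1 and Ptger3 overlapped between the groups, with log2 fold changes of -0.12, 0.13, -0.07 and -0.33.

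**Figure D2:**
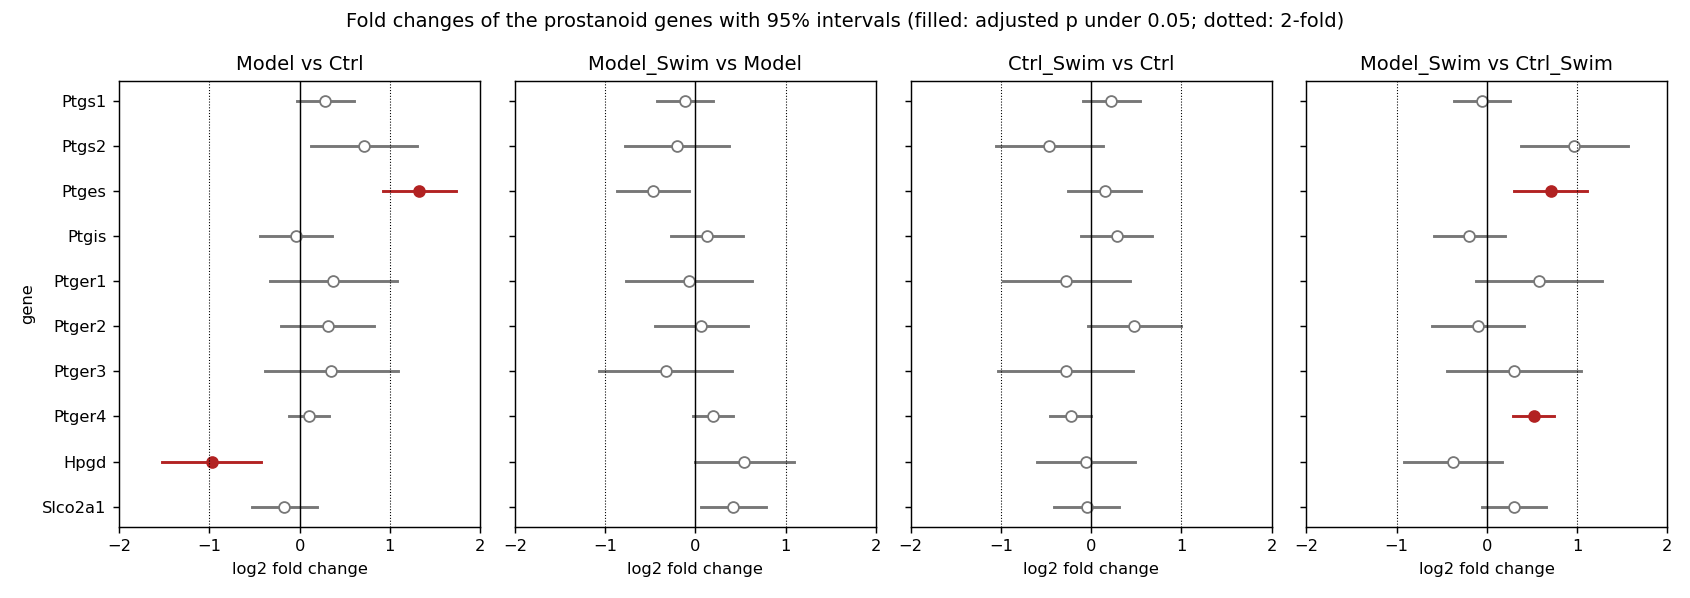
Log2 fold change of each gene (point) with its 95% interval (line) in the 4 comparisons, where filled points passed an adjusted p under 0.05 and dotted lines mark a 2-fold change. Ptges and Hpgd are filled for Model against Ctrl, none for either comparison of swimmers with non-swimmers, and Ptges and Ptger4 for Model_Swim against Ctrl_Swim.

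Ctrl_Swim against Ctrl asks what differs with swimming in mice without AOM and DSS. Here edgeR, DESeq2 and limma called no member, and edgeR called 0.969% of all genes. None of the members had an unadjusted p under 0.05 in edgeR, where 2730 of the 15484 genes tested did. Groups did not overlap for 2 members, against 27.4% of all genes. Ptger2 was higher in all swimmers, at 2.79, 2.66 and 2.96 CPM (log2 fold change 0.48, 95% interval -0.04 to 0.99, edgeR adjusted p = 0.314). Ptger4 was lower in all swimmers, at 31.9, 33.8 and 29.7 CPM (log2 fold change -0.22, 95% interval -0.45 to 0.00, edgeR adjusted p = 0.290). Hpgd had 216, 219 and 179 CPM and overlapped with Ctrl (log2 fold change -0.06, 95% interval -0.60 to 0.48, edgeR adjusted p = 0.926). Ptges had 9.26, 7.13 and 8.79 CPM, in and just above the Ctrl range (log2 fold change 0.15, edgeR adjusted p = 0.704). Ptgs2 had 6.52, 6.01 and 3.32 CPM, with Ctrl_Swim 4 below all other libraries of the study (log2 fold change -0.46, edgeR adjusted p = 0.389). The other 5 members overlapped between the groups. Their log2 fold changes were 0.22 for Ptgs1 (edgeR adjusted p = 0.432), 0.28 for Ptgis (0.428), -0.27 for Ptger1 (0.688), -0.28 for Ptger3 (0.696) and -0.05 for Slco2a1 (0.903). The members' median log2 fold change was -0.05, beside 0.00 over all genes.

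Model_Swim against Ctrl_Swim asks which steps differ after AOM and DSS among swimmers. Ptger4 and Ptges rose, each by less than 2-fold, and no member was called lower. Ptger4 (chr15:5206661-5244187) had 31.9, 33.8 and 29.7 CPM in Ctrl_Swim 2 to 4 and 51.1, 43.7 and 41.9 CPM in Model_Swim 1 to 3. The groups were well apart, with a log2 fold change of 0.52 (SE 0.10, edgeR adjusted p = 0.0215), a fold of 1.43. Ptges had 9.26, 7.13 and 8.79 CPM in Ctrl_Swim and 13.4, 13.1 and 14.7 CPM in Model_Swim, again without overlap (log2 fold change 0.71, SE 0.18, edgeR adjusted p = 0.0495). So 2 of 10 members were called higher and 0 lower, where 3.49% of all genes were higher and 1.69% lower, and 0 members passed the 2-fold cutoff as well, against 1.00% of all genes. Both calls depend on single libraries: without Ctrl_Swim 2, Ctrl_Swim 4, Model_Swim 1 or Model_Swim 2, the edgeR adjusted p of Ptger4 lay between 0.0527 and 0.0679, and that of Ptges lay between 0.0658 and 0.147 when Ctrl 1, Ctrl 3 or any 1 of the 6 libraries compared was left out. With a term for the level of pancreatic genes, the log2 fold change was 0.57 for Ptger4 (edgeR adjusted p = 0.0510) and 0.60 for Ptges (edgeR adjusted p = 0.148).

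Groups of swimmers did not overlap for 6 members, 5 of them higher in Model_Swim and 1 lower, against 32.4% of all genes. Ptgs2 was at 10.2 to 10.6 CPM in Model_Swim and 3.32 to 6.52 CPM in Ctrl_Swim, a log2 fold change of 0.97 (SE 0.27, 95% interval 0.38 to 1.56) that missed the threshold (edgeR adjusted p = 0.0636). It passed in 5 of 23 other fits, among them DESeq2 (adjusted p = 0.00883) and edgeR without Model 2 (adjusted p = 0.0485) or Model 3 (adjusted p = 0.0438). With any library of the swimmers left out it did not pass, at an edgeR adjusted p between 0.0865 and 0.150. The log2 fold change was 0.72 without Ctrl_Swim 4. Hpgd was lower in all Model_Swim libraries, with a log2 fold change of -0.37 (95% interval -0.92 to 0.17, edgeR adjusted p = 0.412). In a fit of the swimmers alone it was called lower, at the same log2 fold change (-0.37, SE 0.09, edgeR adjusted p = 0.0440). Slco2a1 (log2 fold change 0.30, edgeR adjusted p = 0.308) and Ptger1 (log2 fold change 0.58, edgeR adjusted p = 0.318) were higher in all Model_Swim libraries. The other 4 members overlapped between the groups, with log2 fold changes of -0.05 for Ptgs1 (edgeR adjusted p = 0.858), -0.20 for Ptgis (0.570), -0.10 for Ptger2 (0.838) and 0.30 for Ptger3 (0.649). The members' median log2 fold change was 0.30, beside -0.01 over all genes.

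Whether swimming went with a different change in mice with and without AOM and DSS was tested as an interaction. No member passed, and the share over all genes was 0%, while 2947 genes had an unadjusted p under 0.05. Among these were 2 members, Ptger4 with a difference of 0.42 on the log2 scale (edgeR adjusted p = 0.168) and Ptges with -0.62 (edgeR adjusted p = 0.229). The difference for Hpgd was 0.60 (95% interval -0.17 to 1.37, edgeR adjusted p = 0.378), and 1.05 without Model 3 (edgeR adjusted p = 0.00931). In that fit 716 of all 15681 genes tested were called. For Ptgs2 the difference was 0.25 (95% interval -0.57 to 1.08, edgeR adjusted p = 0.756). The comparisons share libraries, Model with 2 of them and each other group likewise, so their values are given side by side and were not correlated.

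Synthesis, receptors and breakdown were then set against each other within each library, in FPKM, where the scaling of the library cancels. These ratios carry no test. The ratio of Hpgd to Ptges was 49.3, 87.2 and 51.7 in Ctrl and 49.5, 65.1 and 43.1 in Ctrl_Swim. It was 9.27, 8.39 and 19.1 in Model and 24.9, 27.0 and 21.7 in Model_Swim. The order was Model below Model_Swim below both groups without AOM and DSS, with no overlap between these 3 tiers, and the ranges of Ctrl and Ctrl_Swim overlapped. As mean ± SD (n = 3), the ratio was 62.7 ± 21.2 in Ctrl, 52.6 ± 11.3 in Ctrl_Swim, 12.3 ± 5.95 in Model and 24.5 ± 2.64 in Model_Swim. Model 3, where Hpgd was close to the swimmers but Ptges was at 18.5 CPM, stood between the other Model mice and Model_Swim.

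**Figure D3:**
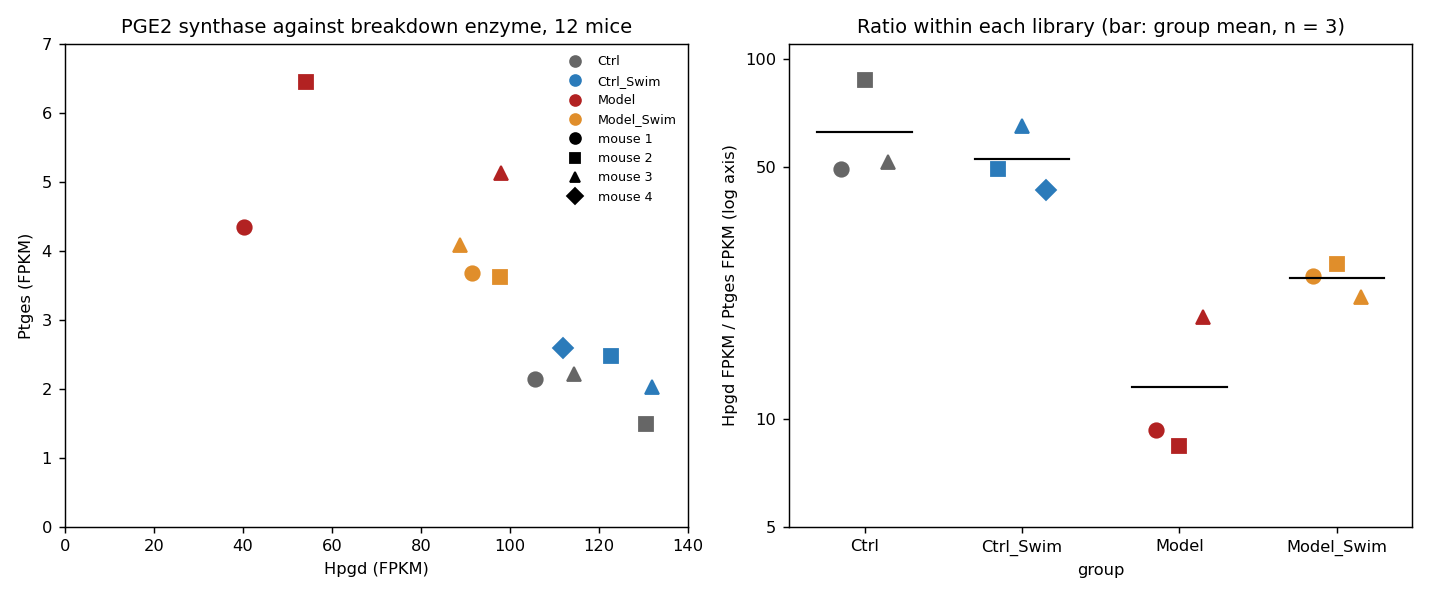
Left, Ptges against Hpgd in FPKM, 1 point per mouse, coloured by group. Right, the ratio of Hpgd to Ptges in each library on a log axis with the group mean as a bar: 8.39 to 19.1 in Model, 21.7 to 27.0 in Model_Swim and 43.1 or more in the 6 libraries without AOM and DSS.

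Against the cyclooxygenases, taken as the summed FPKM of Ptgs1 and Ptgs2, the Hpgd ratio had the same order, with 17.1 ± 0.521 in Ctrl, 15.5 ± 1.59 in Ctrl_Swim, 6.47 ± 2.33 in Model and 10.7 ± 0.627 in Model_Swim (SD, n = 3 each). With GENCODE lengths these means were 9.18, 7.99, 3.57 and 5.87, since Ptgs1 then counts for more. On the log2 scale, the mean ratio of Ptges to Hpgd was higher in Model than in Ctrl by 2.41, and Model_Swim differed from Model by -1.10 and from Ctrl_Swim by 1.08. For the ratio of the cyclooxygenases to Hpgd these differences were 1.46, -0.78 and 0.54. Ctrl_Swim differed from Ctrl by 0.23 and 0.14 in these ratios.

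EP receptor RNA was also taken as a sum. The summed FPKM of the 4 EP genes was 14.7 ± 0.460 in Ctrl, 13.9 ± 1.23 in Ctrl_Swim, 18.1 ± 3.04 in Model and 18.9 ± 1.25 in Model_Swim (SD, n = 3 each). Ptger4 made up 67.9% to 73.2% of it in the group means. The EP sum per unit of Ptges was 7.83 ± 2.01 in Ctrl, 6.0 ± 1.35 in Ctrl_Swim, 3.46 ± 0.678 in Model and 5.0 ± 0.596 in Model_Swim. EP receptor RNA per unit of Ptges RNA was therefore lower in every Model library (2.78 to 4.13) than in any library without AOM and DSS (5.22 to 10.1). Model_Swim (4.34 to 5.49) lay between them and overlapped with Ctrl_Swim. Other PGE synthases were not part of this ratio.

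Other genes of prostanoid synthesis, reception and breakdown were taken from lists of 18 genes, of which 15 could be tested. Ptgds, Ptgdr and Ptgdr2, of the PGD2 branch, had at most 7, 12 and 5 counts in a library. In Model against Ctrl, 1 of the 15 rose and 5 fell, where 16.5% of all genes were called higher and 16.2% lower. The riser was Abcc4, an exporter of prostaglandins, with 27.2 ± 0.462 CPM in Ctrl and 49.0 ± 15.4 CPM in Model (log2 fold change 0.85, SE 0.18, edgeR adjusted p = 0.00566). Of the other synthases, 2 were called, both lower. Ptges2, a membrane-associated PGE synthase, fell from 40.8 ± 4.07 to 26.7 ± 3.55 CPM (log2 fold change -0.61, SE 0.13, edgeR adjusted p = 0.00508). Prxl2b, listed as Fam213b, a PGF synthase, fell from 12.7 ± 1.24 to 7.74 ± 0.754 CPM (log2 fold change -0.72, SE 0.16, edgeR adjusted p = 0.00696).

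The remaining 3 had smaller changes. Pla2g4a, the cytosolic phospholipase that frees arachidonic acid, fell by 0.30 on the log2 scale (edgeR adjusted p = 0.0163). Ptgr2 and Zadh2, prostaglandin reductases that act after Hpgd, fell by 0.34 (edgeR adjusted p = 0.0266) and 0.26 (edgeR adjusted p = 0.0368). Abcc4, Ptges2 and Prxl2b kept their calls in all 23 other fits, and the other 3 lost theirs in some: all of them without Ctrl 2 or Model 2, Ptgr2 and Zadh2 without Ctrl 3, and Zadh2 also without Ctrl 1, Ctrl_Swim 3, Model 1, Model_Swim 2 or Model_Swim 3 (adjusted p of at most 0.135). The median log2 fold change of the 15 genes was -0.20. In the other comparisons and the interaction, edgeR called 0 of the 15. At an unadjusted p under 0.05 there were 4 for Model_Swim against Model, beside 2102 of the 15484 genes tested. There were 1 for Ctrl_Swim against Ctrl (beside 2730), 5 for Model_Swim against Ctrl_Swim (beside 3475) and 1 for the interaction (beside 2947). In these comparisons and the interaction limma also called none, and DESeq2 called Ptgfr and Cbr1 for Model_Swim against Model.

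Markers of several cell types moved with these genes, and their part in the results was not tested. The summed level of 10 genes of mature colonocytes, led by Car1, was 2154, 3408 and 7344 CPM in Model 1 to 3, against 9440 to 10162 CPM in Ctrl, 8442 to 12749 CPM in Ctrl_Swim and 8861 to 9404 CPM in Model_Swim. Over the 12 libraries it followed Hpgd with Pearson's r = 0.934 and Spearman's rho = 0.636, a description over libraries that share the groups. By rank, Hpgd followed other lists more closely and in the opposite direction, with rho = -0.846 for squamous epithelium (r = -0.705), -0.811 for fibroblasts (r = -0.775) and -0.790 for neutrophils (r = -0.742). Of the colonocyte genes, Krt20 and Guca2a were called lower in Model against Ctrl and Ceacam20 and Ms4a12 higher, and none was at 0 in a library. The summed level of 10 macrophage genes, led by Lyz2, was 421 to 450 CPM in Ctrl, 394 to 506 CPM in Ctrl_Swim, 811 to 908 CPM in Model and 709 to 847 CPM in Model_Swim. All 10 of them were called higher in Model against Ctrl and 7 in Model_Swim against Ctrl_Swim, the same comparisons in which Ptges was called. Ptges followed their sum with r = 0.899 (rho = 0.825, n = 12).

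**Figure D4:**
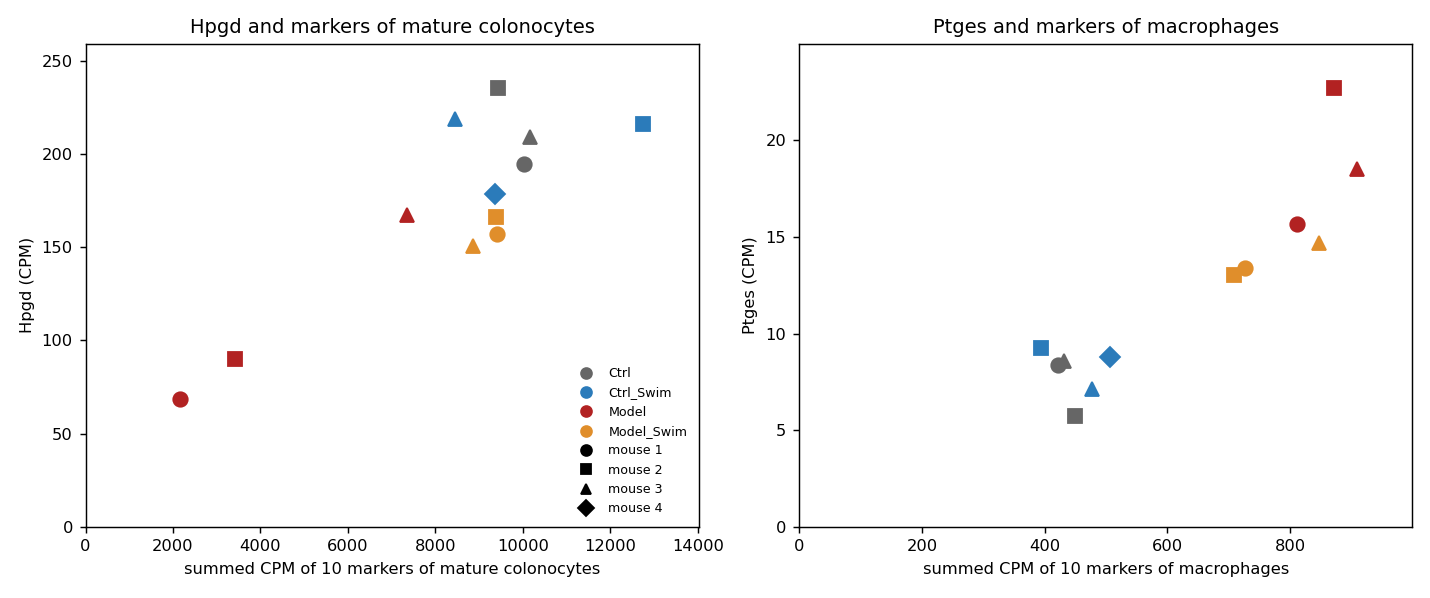
Left, Hpgd against the summed CPM of 10 genes of mature colonocytes. Right, Ptges against the summed CPM of 10 macrophage genes, with 1 point per mouse coloured by group. Model 1 and Model 2 are low on both axes at left, and all 6 mice with AOM and DSS are at 709 CPM or more on the macrophage axis and at 13.1 CPM or more for Ptges at right.

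Fibroblast genes summed to 1911 to 2119 CPM in Ctrl, 1712 to 2058 CPM in Ctrl_Swim, 3131 to 3241 CPM in Model and 2430 to 3044 CPM in Model_Swim, with 7 of 10 called higher in Model against Ctrl. Ptges followed them with r = 0.876 and Ptgs2 with r = 0.786 (n = 12 each). Neutrophil genes, led by Ltf, ranged from 7.92 to 9.10 CPM in Ctrl, 10.4 to 34.2 CPM in Ctrl_Swim, 20.2 to 396 CPM in Model and 48.2 to 640 CPM in Model_Swim, with 7 of 10 called higher in Model against Ctrl and with Ngp, Camp and Mmp8 at 0 in some libraries. Endothelial genes, led by Plvap (289 to 327 CPM in Ctrl and 349 to 392 CPM in Model), had 3 of 10 called higher. Smooth muscle (8511 to 8865 CPM in Ctrl and 6772 to 9975 CPM in Model) and tuft cells, led by Dclk1 (88.5 to 99.1 CPM in Ctrl and 75.4 to 87.4 CPM in Model), a further source of prostanoids, had no gene called in any comparison, and Il25 of the tuft genes was at 0 in some libraries. Genes of pancreatic acinar cells, led by Ctrb1, summed to 326 to 478 CPM in Ctrl and 308 to 54975 CPM in Model, with 18 called higher. Those of squamous epithelium, led by Krt5, summed to 13.4 to 20.0 CPM in Ctrl and 28.5 to 2061 CPM in Model, with 11 called higher. Squamous genes also varied among swimmers, from 9.74 to 897 CPM in Ctrl_Swim, highest in Ctrl_Swim 4, and from 174 to 1157 CPM in Model_Swim. In some libraries Cela2a, Cela3b, Ctrc, Try4, Try5, Amy2a5, Cel, Cuzd1 and Rbpjl of the acinar list and Trp63, Dsg3, Sprr3, Ivl and Krtdap of the squamous list were at 0.

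The genes whose log2 CPM followed 3 of the members most closely over the 12 libraries were taken from 14004 genes with a mean of at least 1 CPM. For Hpgd they were Fkbp5 (r = 0.991), Golim4 (r = 0.982) and Dpyd (r = 0.980). Without Model 1 and Model 2, the libraries farthest from the median of Hpgd, r was 0.979, 0.902 and 0.869. For Ptges they were Zswim8 (r = 0.965), Cd33 (r = 0.964), a receptor of myeloid cells, and C4b (r = 0.962), a complement component. For Ptgs2 they included Prkx (r = 0.934) and Fgf10 (r = 0.924), a growth factor of stromal cells. These are the highest of many correlations over libraries that share groups, and describe likeness only.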

How the data were processed

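RNA of colorectal tissue was sequenced from 12 mice, 3 in each of 4 groups, grouped by the sample labels. Per gene, the authors counted reads with HTSeq-count after trimming (Trimmomatic) and alignment with HISAT2 (GRCm38.p6), and they deposited the raw counts of 18514 gene symbols. The deposited FPKM values were computed by the authors with Cufflinks. Tool versions, the annotation release and the strand setting of the counting are not given in the sources used here.

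The counts were fitted by edgeR 4.0.16 (R 4.3.3) with TMM scaling, filterByExpr at a minimum count of 10 and 1 quasi-likelihood model over all 4 groups, with p-values adjusted by Benjamini-Hochberg over the 15484 genes tested in each comparison. Calls are at an adjusted p under 0.05, with the study's cutoffs of a fold over 2 or under 0.5 as a second rule. CPM values of genes and of marker lists are TMM-scaled, while the limit from 3 counts and the sum of 6 pancreatic genes are relative to total counts. Intervals are 95% intervals of the fit, and log2 CPM has a prior count of 2. Levels of different genes and ratios within a library used FPKM. P-values measure the spread between mice, and limits from counts cover counting error alone.

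The members, the lists of other prostanoid genes and of cell type markers, and the tests were chosen with earlier results of these data known. By the rule for names, the text gives the 10 members in every comparison, each other prostanoid gene that was called, the most abundant marker of each list and markers at 0 in a library, and for Ptgs2, Ptges and Hpgd the 3 genes most alike, of which 1 for Ptgs2 is not reported here. Gene positions are from GENCODE M21 (GRCm38) and promoters from RefSeq (GRCm38.p6). The alternatives were DESeq2 1.42.0 and its size factors, no filter, only the groups compared, a replicate block, acinar genes left out of the counts, a term for or restriction to a division of libraries at 5 CPM of 6 pancreatic genes, limma 3.58.1 on log2(FPKM + 1) or log2(FPKM + 0.1) with a mean FPKM of at least 0.5 or no such filter, the 2-fold cutoff, and leaving out each library. GENCODE lengths for the cyclooxygenase ratio were chosen after seeing the data. Scripts were first tested on simulated data.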

Additional observations from a re-analysis of the deposited data

How the results depend on the processing

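Of the 50 pairs of a member and a comparison, 40 had the same call under every alternative run, and no call changed direction. For Model against Ctrl, 1 member was called in a fit of only the groups compared, 1 within the libraries with higher pancreatic genes and 1 with the 2-fold cutoff, and from 2 to 5 were called when a library was left out, with 5 without Model 1. For Model_Swim against Model this range was 0 to 1, with Hpgd called without Model 3, and for the interaction it was 0 to 1, again with Hpgd without Model 3. Over all genes tested, leaving out Model 3 called 882 of 15681 for Model_Swim against Model and 716 of 15681 for the interaction. Leaving out Model 1 called 5034 of 15635 for Model against Ctrl. For Model_Swim against Ctrl_Swim, 1 member was called with no filter on low counts, 4 in a fit of only the groups compared, 0 with the term for pancreatic genes, 1 within the libraries with lower pancreatic genes, 1 with limma on unfiltered FPKM, 0 with the 2-fold cutoff, and 0 to 3 with a library left out. Of the other prostanoid genes, the 6 called for Model against Ctrl became 3 within the libraries with higher pancreatic genes and in each of the limma fits, 0 with the 2-fold cutoff, and 3 to 7 with a library left out. None was called in the main fit of the other comparisons, where DESeq2 called 2 for Model_Swim against Model, a fit of only the groups compared called 1 for Model_Swim against Ctrl_Swim, and leaving out Model 3 called 1 for each of these and for the interaction, so that these ranges were 0 to 1. The cause of these changes was not tested.

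Genes called over the whole table, against 5066, 11, 150, 802 and 0 in the main fit in the order of the report, ranged over the alternatives at an adjusted p under 0.05 from 3160 to 5620, 0 to 882, 0 to 646, 40 to 1546 and 0 to 758. With the replicate block they were 4322, 26, 1, 40 and 0, and the members called were 3, 0, 0, 0 and 0, with Ptgs2 added for Model against Ctrl (adjusted p = 0.0173) and both calls lost between the swimming groups. The sources used here do not say what libraries with the same replicate number share. Over 15 pairs of libraries with the same number, the correlation of their deviations from the group means ran from -0.261 to 0.564 with a median of 0.00462. This correlation was over 0.1 in 4 pairs and highest for Ctrl_Swim 3 with Model 3. Whether some numbers share a factor was not tested. With GENCODE lengths the ratio of Hpgd to the cyclooxygenases moved from 17.1 to 9.18 in Ctrl, 15.5 to 7.99 in Ctrl_Swim, 6.47 to 3.57 in Model and 10.7 to 5.87 in Model_Swim, with the order kept. With 3 mice in a group, wide intervals limit what the receptors show, and Ptger2, at 28 to 58 counts in a library, carries the largest counting error.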

Other observations

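Among the other prostanoid genes, Ptgfr, which encodes the receptor of PGF2α, was higher in all 6 swimmers than in all 6 mice that did not swim. It was singled out after its values were seen. Its level ranged from 0.883 to 2.18 CPM in Ctrl and from 1.21 to 1.36 CPM in Model, and from 3.12 to 3.56 CPM in Ctrl_Swim and 2.56 to 3.23 CPM in Model_Swim. The log2 fold change was 0.99 (SE 0.30, edgeR adjusted p = 0.147) for Ctrl_Swim against Ctrl and 1.14 (SE 0.31, edgeR adjusted p = 0.185) for Model_Swim against Model, from 16 to 67 counts per library, and neither passed the test in edgeR. Over all genes, groups did not overlap for 27.4% in Ctrl_Swim against Ctrl and for 16.9% in Model_Swim against Model. These shares are for single comparisons. The share of genes that set all 6 swimmers apart from all 6 other mice was not counted. All swimmers except Ctrl_Swim 3 had the lower level of pancreatic genes, and all mice that did not swim had the higher. What the level of Ptgfr depends on was not tested.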
